A study of Mus musculus with 8 samples.

Results

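The genes described here are 38 receptors for neuropeptides and peptide hormones, named one by one and looked up by symbol among the 55450 genes of the deposited count tables. Most sit in the cell membrane and couple to G proteins: binding of a peptide makes Gs raise cyclic AMP, Gi/o lower it and open potassium channels, or Gq/11 release calcium from internal stores. Cortical inhibitory neurons both release such peptides (somatostatin, NPY, VIP, cholecystokinin, tachykinins) and carry receptors for them, and the peptides released differ between the classes of these neurons. Npr1 and Npr3 are exceptions. They bind natriuretic peptides, Npr1 as a guanylyl cyclase and Npr3 mainly as a clearance receptor.

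The RNA came from fluorescent nuclei sorted from the cortex of juvenile mice, 1 cortex per library. In every mouse a Cre driver directed to GABAergic neurons switched on a nuclear fluorescent reporter. The controls were Thra+/+ and the mutants Thra+/AMI, in which the same Cre also switched on a mutant Thra allele encoding a thyroid hormone receptor with dominant negative action. The name of the driver and the exact age are not given in the sources used here. There were 4 controls (1 to 4) and 4 mutant tables (6, 7, 8 and 10), but the tables of mutants 7 and 10 held the same count in all 55220 genes with a symbol of their own. Those 2 tables differed by less than sampling noise and entered every comparison as 1 sample, called mutant 7. All comparisons are between 4 controls and 3 mutants, 7 libraries in all.

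Total counts ran from 10747169 to 13804734 per library. Thra itself had 1308 to 1661 counts in controls and 992 to 1133 in mutants (114 ± 9.35 against 87.5 ± 9.39 CPM, counts per 1000000 reads scaled by TMM, SD, n = 4 and 3). The groups did not overlap, but the gene was not called (log2 fold change -0.39, SE 0.11, edgeR adjusted p 0.0543), and its counts add both alleles. It was called lower by DESeq2 (adjusted p 0.0304) and by edgeR without control 1 (0.0275) or control 4 (0.0149). Control 4 and mutant 8 had 4 and 3 counts over 4 Y-linked genes, against 5094 to 6644 in the other 5 libraries. The summed level of the pan-GABAergic markers was 2280 to 2657 CPM in controls and 2263 to 2700 in mutants, against 80.4 to 148 and 85.9 to 139 CPM for glutamatergic markers (Dlx1 and Dlx6, of the pan-GABAergic list, were listed at 0 and lie inside other genes). Markers of striatal projection neurons, cells outside the labelled cortex, summed to 423 to 891 CPM in controls and 580 to 781 in mutants, of which Pde10a alone made 318 to 805 and 417 to 644. Of these 7 markers 1 was called, Rgs9 (0.81), and Drd1 was at 23.6 to 30.8 CPM in controls and 25.1 to 27.6 in mutants. Between the groups, parvalbumin neuron markers were lower (797 to 975 against 353 to 428 CPM, 4 of 6 called lower, Pvalb among them) and somatostatin neuron markers higher (1432 to 1807 against 2365 to 2775 CPM, 3 of 8 called higher). Of all tested genes 4.78% were called lower and 4.63% higher. In such sorted pools fewer cells of a type and less RNA per cell cannot be told apart, and the part of these marker lists in the receptor values below was not tested.

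Of the 38 receptors, 32 had 10 or more counts in at least 3 libraries, and the same 32 passed the filter of the test. All 32 had such counts in libraries of both groups, and 30 had them in at least 3 controls and in all 3 mutants. Galr1 and Trhr were the thin cases. The 6 below were Sstr2, Avpr1a, Glp1r, Nmur2, Cckar and Npr1. Sstr2, Avpr1a, Glp1r and Nmur2 were listed at 0 in every library, and the whole span of each lies inside another annotated gene on the opposite strand (Sstr2 inside Slc39a11). All 1287 protein-coding genes that lie wholly inside another gene, on either strand, were listed at 0 in every library, against 24.7% of the 11728 with no shared span, so these tables hold no reading of those 4 receptors. Cckar had 1 count in control 3 and none elsewhere (a count of 0 allows up to 3 counts, or 0.279 CPM in the smallest library), and Npr1, which shares 36.1% of its span, had 5 to 10 counts per library.

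In mutant nuclei 7 receptors rose and none was called lower. These are 21.9% of the 32 tested, by the quasi-likelihood test of edgeR with Benjamini-Hochberg adjusted p-values under 0.05, where 9.42% of all 16448 tested genes were called, 4.63% higher and 4.78% lower. By role, the 7 were Gipr and Vipr2 (receptors of the secretin family), Npsr1 (neuropeptide S), Mc4r (melanocortins), Oprm1 (the mu opioid receptor), Npy2r (NPY) and Prokr2 (prokineticin 2). The median log2 fold change of the tested receptors was 0.17, beside -0.01 for all tested genes. The receptors were chosen with earlier results of these data known, which can raise the share called. Values set beside those of all tested genes, here and below, are descriptions and no test of the receptors as a set. No receptor was called lower in the main edgeR fit, although 5 had an unadjusted p under 0.05 in that direction. The share of all tested genes under that unadjusted threshold was not computed. DESeq2 called 1 lower, Hcrtr1, and edgeR under some other settings called 1 or 2 lower. The plot of fold changes by main G protein shows the receptors in this order.

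**Figure D1:**
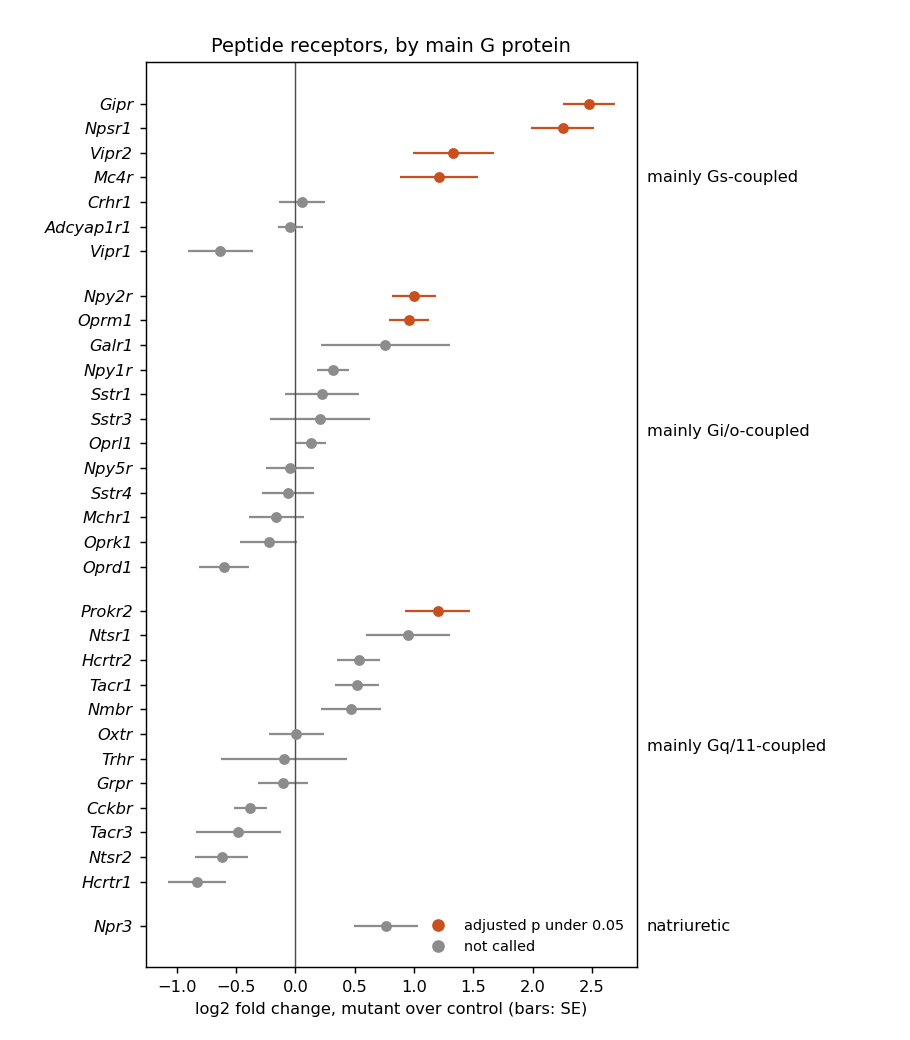
Log2 fold change of mutant over control (x axis) for the 32 tested receptors, grouped by the G protein they mainly couple to, with SE bars; orange marks an adjusted p under 0.05. The 7 orange points all lie above 0, with Gipr (2.47) and Npsr1 (2.25) farthest out, and Hcrtr1 (-0.83) is the lowest point.

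Among the receptors coupled mainly to Gs, 4 of the 7 tested rose, beside 4.63% called higher among all tested genes. The G protein classes were not tested against each other. Each receptor was put in a single class, and the counts by class depend on that choice. Npsr1 was put under Gs although it also raises calcium. Gipr, the receptor for the gut hormone GIP (GRCm38 chromosome 7, 19156061 to 19166127, minus strand), had 68, 71, 76 and 36 counts in the 4 controls, in the order of their numbers, against 329, 344 and 306 in mutants 6, 7 and 8. Every mutant lay far above the highest control, and control 4 was the lowest library. Its level went from 4.86 ± 1.32 to 27.1 ± 4.00 CPM (SD, n = 4 and 3); log2 fold change 2.47 (SE 0.22, edgeR adjusted p 3.64e-05). Npsr1, which binds neuropeptide S and raises both cyclic AMP and calcium (chromosome 9, 24097996 to 24316398, plus strand), had 20, 43, 42 and 50 counts in controls and 196, 173 and 154 in mutants. The groups again lay far apart, with control 1 lowest. Its log2 fold change was 2.25 (SE 0.26, edgeR adjusted p 0.000252).

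Vipr2, the VPAC2 receptor for VIP and PACAP (chromosome 12, 116077726 to 116146261, plus strand), was scarce, with 10, 16, 16 and 10 counts in controls and 27, 37 and 28 in mutants. All mutants exceeded all controls, for log2 fold change 1.33 (SE 0.34, edgeR adjusted p 0.0289). An antisense gene shares 52.4% of its span. The call was lost without control 3 (adjusted p 0.0519) or without mutant 6, 7 or 8 (0.0671, 0.171 and 0.0744). Mc4r, the melanocortin receptor known for its part in feeding (chromosome 18, 66857704 to 66860506, minus strand), had 37, 19, 28 and 14 counts in controls and 46, 59 and 55 in mutants. Here the highest control came near the lowest mutant without reaching it (2.94 against 3.60 CPM). The log2 fold change was 1.21 (SE 0.33, edgeR adjusted p 0.0387), and the call was lost without control 2 (adjusted p 0.108), control 3 (0.0777), or mutant 6, 7 or 8 (0.0761, 0.183 and 0.115).

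The other 3 Gs-coupled receptors were not called. Adcyap1r1, the PAC1 receptor for PACAP, was the most abundant of all the receptors by count, with 2285, 2393, 2689 and 2356 counts in controls and 2367, 1980 and 2350 in mutants. The libraries were close together, 189 ± 11.2 CPM in controls and 184 ± 1.72 in mutants; log2 fold change -0.04 (SE 0.10). Crhr1, the main receptor for corticotropin-releasing hormone, was at 0.05 (SE 0.19) on that scale. Vipr1, the VPAC1 receptor, had 129, 179, 137 and 188 counts in controls and 128, 46 and 121 in mutants. Its groups did not overlap, though control 1 (10.2 CPM) and mutant 6 (10.0 CPM) were nearly equal and mutant 7 (4.22 CPM) was low (log2 fold change -0.63, SE 0.27, edgeR adjusted p 0.192). Without mutant 7 the value was -0.33 (adjusted p 0.525).

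Of the 12 tested Gi/o-coupled receptors 2 rose, beside the same 4.63% of all tested genes. Oprm1, the mu opioid receptor (chromosome 10, 6758506 to 7038198, plus strand), had 265, 356, 364 and 435 counts in controls and 569, 606 and 784 in mutants. The lowest mutant stood clear of the highest control (44.5 against 35.1 CPM), and the mean went from 27.7 ± 5.77 to 53.8 ± 8.54 CPM (SD, n = 4 and 3). The log2 fold change was 0.96 (SE 0.17, edgeR adjusted p 0.0037). Other genes share 55.7% of its span, Ipcef1 on the opposite strand among them. Npy2r, the Y2 receptor, often a presynaptic brake on release (chromosome 3, 82538383 to 82548084, minus strand), had 192, 161, 161 and 115 counts in controls and 266, 315 and 305 in mutants. Its mean went from 12.2 ± 2.43 to 24.5 ± 4.09 CPM, without overlap (log2 fold change 1.00, SE 0.18, edgeR adjusted p 0.00468).

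The other opioid receptors were not called. Oprd1, the delta receptor, spread widely in controls, with 884, 1482, 1383 and 1984 counts, and had 855, 814 and 1014 in mutants. Control 1 (70.1 CPM) lay among the mutants (66.9 to 79.3 CPM) and control 4 (160 CPM) far above them. The log2 fold change was -0.60 (SE 0.21, edgeR adjusted p 0.106). Single controls moved it both ways: without control 1 it was -0.77 and called lower (adjusted p 0.00322), and without control 4 it was -0.38 and not called (0.0974). Oprd1 was also called lower in 3 of the 11 other settings. These were limma-voom (adjusted p 0.0073), edgeR with the term for Y-linked reads (0.0401) and edgeR without controls 1 and 4 together (0.000126). Oprl1, the nociceptin receptor, had 624, 527, 606 and 450 counts in controls and 557, 542 and 610 in mutants, with overlapping groups (0.13, SE 0.13), and Oprk1, the kappa receptor, was at -0.23 (SE 0.24).

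Among the other NPY receptors, Npy1r was at 22.7 ± 2.10 CPM in controls and 28.3 ± 3.35 in mutants (log2 fold change 0.32, edgeR adjusted p 0.194) and Npy5r at 5.51 ± 0.566 and 5.32 ± 0.405 (-0.05). The 3 somatostatin receptors with counts did not pass the test: Sstr1 at 0.22, Sstr3 at 0.21 and Sstr4 at -0.06. Sstr1 had 188, 347, 336 and 230 counts in controls and 145, 380 and 365 in mutants, so that mutant 6 was the lowest of the 7 libraries and mutant 7 the highest by CPM. Its log2 fold change was -0.09 without mutant 7. Mchr1, the receptor for melanin-concentrating hormone, was at -0.16 and Galr1, for galanin, at 0.76 (SE 0.54) from 2 to 13 counts per library (0.45 without mutant 7).

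Of the 12 tested Gq/11-coupled receptors 1 rose, beside the same 4.63% of all tested genes. Prokr2, the receptor for prokineticin 2 (chromosome 2, 132337733 to 132385447, minus strand), had 50, 37, 43 and 53 counts in controls and 81, 70 and 151 in mutants. Mutant 8 stood well above the other mutants, and all 3 stood above the controls. The log2 fold change was 1.20 (SE 0.27, edgeR adjusted p 0.0159). Without mutant 8 it was 0.84 (adjusted p 0.114) and without control 2 it was 1.10 (adjusted p 0.0556), both no longer called.

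The orexin receptors, which bind the peptides of the hypothalamic wake-promoting neurons, had fold changes of opposite sign. Hcrtr1 had 152, 187, 164 and 85 counts in controls and 86, 76 and 71 in mutants. Control 4 (6.86 CPM) lay among the mutants (5.55 to 6.98 CPM) and the other controls at 12.1 to 14.1 CPM (log2 fold change -0.83, SE 0.25, edgeR adjusted p 0.0556). Hcrtr2 had 246, 314, 307 and 434 counts in controls and 530, 384 and 430 in mutants, and there too control 4 (35.0 CPM) lay among the mutants (33.6 to 41.5 CPM), for log2 fold change 0.53 (SE 0.18, adjusted p 0.0937). Without control 4 both were called, Hcrtr1 at -1.01 (adjusted p 0.00198) and Hcrtr2 at 0.73 (0.00178). Under the 11 other settings, Hcrtr1 was called lower in 7 and Hcrtr2 higher in 5. Those for Hcrtr1 included DESeq2 (adjusted p 0.0202) and the presence of Y-linked reads as a term in edgeR (0.0329).

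A further 3 Gq/11-coupled receptors had groups that did not overlap, without a call. Tacr1, the substance P receptor, had 119, 170, 182 and 184 counts in controls and 200, 236 and 226 in mutants. The highest control (14.8 CPM) was just under the lowest mutant (15.7 CPM), with log2 fold change 0.52 (SE 0.19, edgeR adjusted p 0.11). It was called without control 4 (0.60, adjusted p 0.0395). Ntsr1, a neurotensin receptor, had 9, 13, 12 and 17 counts against 19, 23 and 28 (log2 fold change 0.95, SE 0.35, adjusted p 0.125). Cckbr, the main cholecystokinin receptor of the brain, had 712, 544, 592 and 535 counts in controls and 515, 354 and 439 in mutants, and control 2 (41.1 CPM) was barely above mutant 6 (40.3 CPM) (-0.38, SE 0.14, adjusted p 0.121). With Vipr1, 9 of the 32 tested receptors were higher (28.1%) and 2 lower (6.25%) without overlap. Of all tested genes 11.2% and 10.7% were (22.0% in either direction), a comparison limited by the choice of the receptors with earlier results known. The plot of CPM by library shows these 11.

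**Figure D2:**
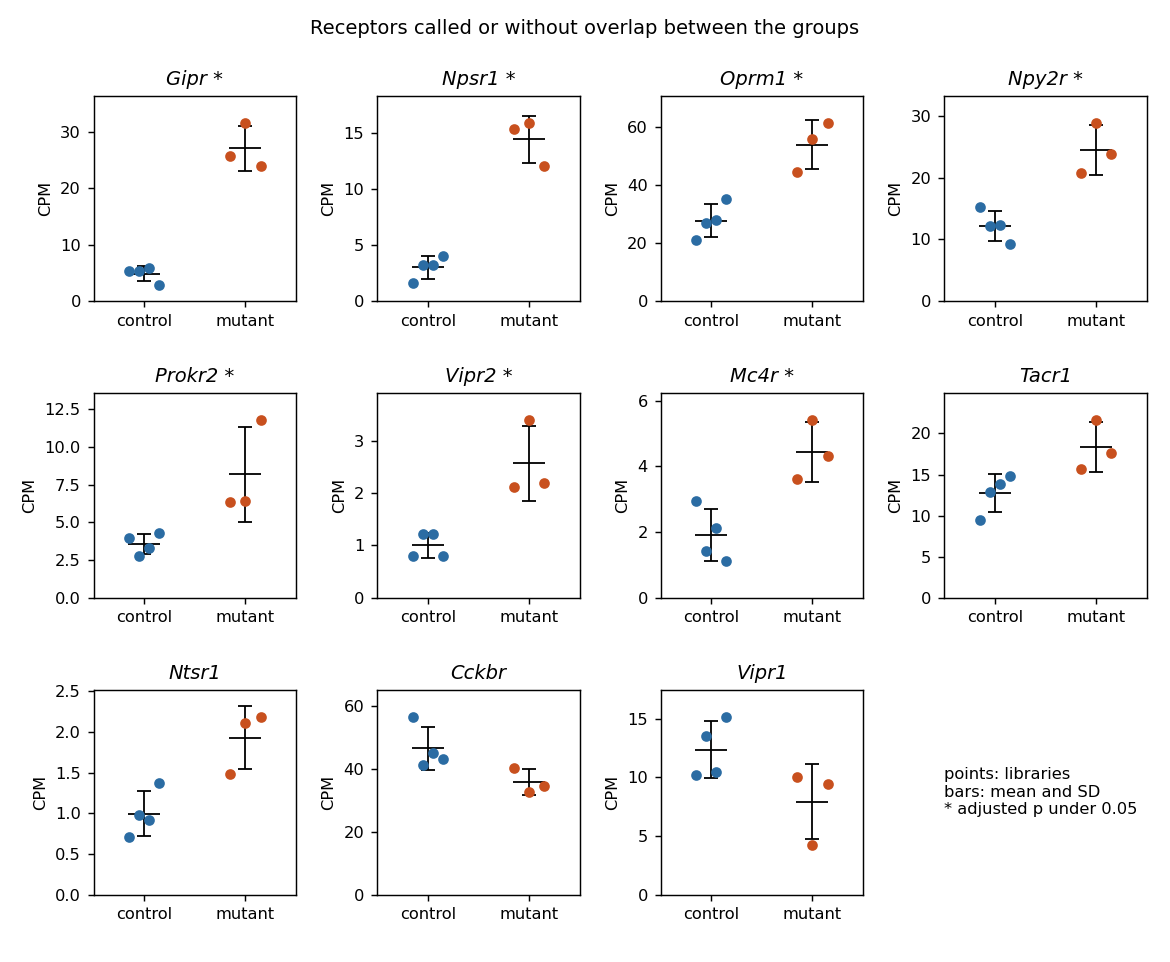
CPM in each library (points), with mean and SD (bars), for the 7 called receptors (asterisk) and the 4 whose groups did not overlap without a call; each y axis starts at 0. Gipr and Npsr1 show the widest gaps, and in Vipr1 mutant 6 (10.0 CPM) nearly meets control 1 (10.2 CPM).

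Ntsr2, the other neurotensin receptor and in brain largely an astrocyte gene, had 442, 260, 239 and 388 counts in controls and 234, 164 and 222 in mutants, with control 3 and mutant 6 nearly equal (18.2 and 18.3 CPM; log2 fold change -0.62, SE 0.23, edgeR adjusted p 0.116). Controls 1 and 4 were the high libraries, and the value was -0.16 without both (adjusted p 0.565) and -0.30 with limma-voom (0.255). The astrocyte marker list lay in the same direction, at 358 to 517 CPM in controls and 300.4 to 343 in mutants, with 1 of its 7 tested genes called (Slc4a4, -0.54) and Gfap listed at 0. Its part in the value of Ntsr2 was not tested. The remaining Gq/11-coupled receptors overlapped between groups: Nmbr (neuromedin B) at 0.47, Oxtr (oxytocin) at 0.01, Trhr (thyrotropin-releasing hormone) at -0.10, Grpr (gastrin-releasing peptide) at -0.11 and Tacr3 (neurokinin B) at -0.48. Oxtr had 106 to 177 counts in controls and 119 to 158 in mutants. Npr3, the natriuretic peptide clearance receptor, had 53, 52, 104 and 87 counts against 101, 108 and 148 (log2 fold change 0.76, SE 0.27, adjusted p 0.105), and was called without control 4 (0.87, adjusted p 0.0393). In sum, of the 25 tested receptors without a call 12 lay above 0 and 13 below, and 10 had an unadjusted p under 0.05, 5 in each direction. Without the share of all tested genes under that threshold, which was not computed, these counts are no result about the receptors.

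Of the 7 called receptors 5 have a promoter in the RefSeq table, and those of Npsr1, Npy2r, Prokr2 and Vipr2 are shown to set start regions of receptors that rose side by side. Oprm1, the fifth, has 3 annotated starts and is not shown: none of its windows holds a match to any motif searched. They are the 250 bases before the RefSeq start, on the gene's strand, from GRCm38.p6, where 31 of the 38 receptors have an entry. Capitals mark matches, on either strand, to the thyroid hormone receptor half-site AGGTCA, to TGACG (the half-site of cyclic AMP response elements) and to the GC box GGGCGG.
Npsr1 (chr9:24097768-24098017, plus): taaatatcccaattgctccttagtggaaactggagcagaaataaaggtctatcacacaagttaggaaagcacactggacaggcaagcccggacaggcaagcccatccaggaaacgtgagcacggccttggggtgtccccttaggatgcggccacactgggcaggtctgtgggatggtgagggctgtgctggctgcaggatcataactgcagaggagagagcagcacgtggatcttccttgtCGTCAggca
Npy2r (chr3:82548086-82548335, minus): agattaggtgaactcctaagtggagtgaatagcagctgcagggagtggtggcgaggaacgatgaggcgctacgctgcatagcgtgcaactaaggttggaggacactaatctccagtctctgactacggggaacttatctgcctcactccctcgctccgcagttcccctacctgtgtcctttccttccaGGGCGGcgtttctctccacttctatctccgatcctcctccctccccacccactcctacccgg
Prokr2 (chr2:132385448-132385697, minus): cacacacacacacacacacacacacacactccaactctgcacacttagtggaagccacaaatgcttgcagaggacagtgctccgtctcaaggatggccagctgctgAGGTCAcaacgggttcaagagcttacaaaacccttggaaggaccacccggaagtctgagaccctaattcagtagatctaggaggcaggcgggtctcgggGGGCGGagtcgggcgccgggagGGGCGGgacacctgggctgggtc
Vipr2 (chr12:116077476-116077725, plus): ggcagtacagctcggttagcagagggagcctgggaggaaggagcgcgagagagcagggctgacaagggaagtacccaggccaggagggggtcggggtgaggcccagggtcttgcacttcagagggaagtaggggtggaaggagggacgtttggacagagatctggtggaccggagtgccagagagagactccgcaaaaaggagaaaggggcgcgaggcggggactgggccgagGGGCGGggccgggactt
Of the 5 called receptors with a promoter, the half-site AGGTCA was found in 1, Prokr2, where it begins 144 bases before the start, and in 14.0% of all 32851 promoters of that length in the table. It was found in 4 of the 31 receptors in all, the others being Hcrtr1, Hcrtr2 and Oxtr. TGACG was found in 1 of the 5, Npsr1, in 10 of the 31 and in 17.8% of all promoters. GGGCGG was found in 3 of the 5, Npy2r, Prokr2 and Vipr2, in 13 of the 31 and in 32.7% of all promoters. The full cyclic AMP response element TGACGTCA was found in none of the 5 and in 1 of the 31, Sstr2 (1.55% of all promoters). The direct repeat of AGGTCA with 4 bases between (DR4) was in none of the receptors' windows and in 5 of all promoters. A receptor was counted once if any of its promoters matched (38 promoters for the 31 receptors), while the percentages count each promoter. These are not on the same scale. A match is a description of the letters only.

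Levels of different receptors were compared as CPM per kb of merged exons. In controls Adcyap1r1 (28.7 ± 1.69 CPM per kb, SD, n = 4) and Oprd1 (27.8 ± 9.20) came first and did not differ beyond their spread. Cckbr followed at 16.2 ± 2.40, then Oprl1 at 11.4 ± 1.59 and Sstr1 at 10.4 ± 2.69. The lowest were Galr1 (0.164 ± 0.0924) and Trhr (0.222 ± 0.115). Of the 31 neighbouring pairs in this order, 3 had control ranges that did not overlap: Cckbr above Oprl1, Grpr above Nmbr, and Prokr2 above Ntsr1. None of the called receptors was among the 5 highest in controls by exon length: Npy2r (3.62 ± 0.718 CPM per kb) and Oprm1 (3.44 ± 0.718) stood in the middle, and Gipr (1.40 ± 0.379), Npsr1 (0.764 ± 0.260), Mc4r (0.681 ± 0.286), Prokr2 (0.452 ± 0.0844) and Vipr2 (0.226 ± 0.0535) in the lower part. Per kb of the whole gene, introns included, the order changed: Sstr1 (7.97 CPM per kb) came first, before Oprl1 (7.19) and Sstr4 (5.38), and 3 of the 5 highest by exon length stayed among the 5 highest. Among the called receptors, Npy2r went from rank 13 by exon length to rank 9 of 32, Mc4r from 24 to 13 and Gipr from 21 to 15, while Oprm1 went from 14 to 22 and Npsr1 from 22 to 32. Where a called receptor stands among the others therefore differs with the length used.

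**Figure D3:**
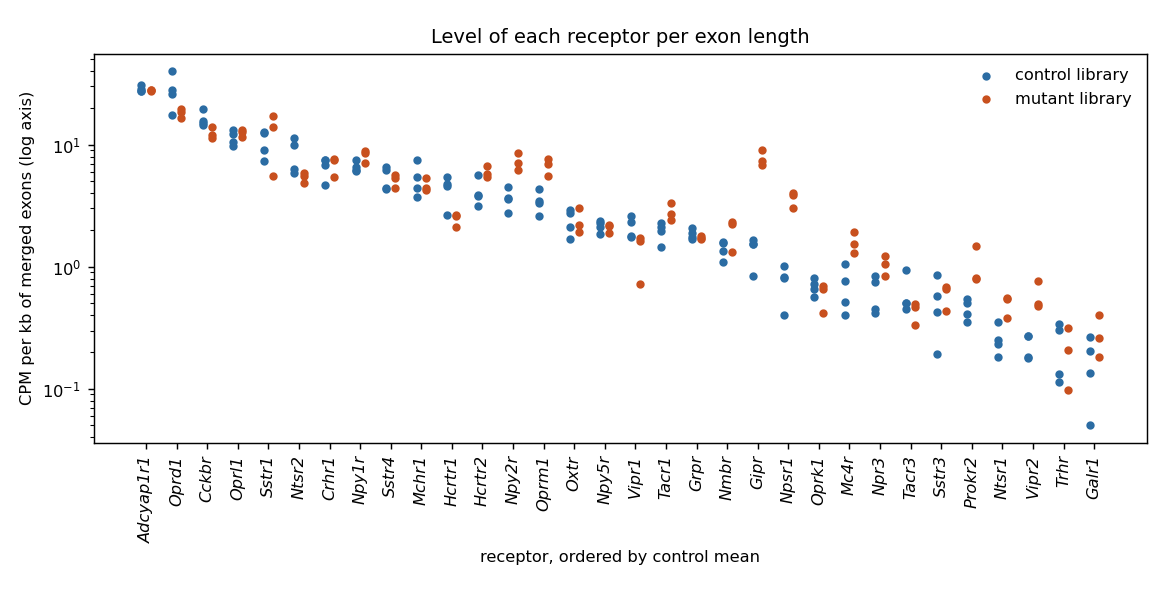
CPM per kb of merged exons (log axis) in each control (blue) and mutant (orange) library for the 32 receptors, ordered by the control mean. Adcyap1r1 is highest at 28.7 CPM per kb in controls, and Gipr and Npsr1 are the receptors whose mutant points lie farthest above their control points.

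The balance between receptors of the same family was examined in 19 pairs, chosen after the values had been seen, as the log2 ratio of CPM within each library. The receptor with the larger log2 fold change was put first in the ratio. Normalization between libraries cancels in such a ratio. In 8 pairs the groups did not overlap, and in all of these but Ntsr1 to Ntsr2 a called receptor came first. Such ratios partly restate the calls, and their p-values are no separate test of them. Of these 8, Oprm1 to Oprd1 had the smallest SD in each group, at -1.98 ± 0.193 in controls and -0.46 ± 0.112 in mutants (SD, n = 4 and 3), a difference of 1.52. Vipr2 to Vipr1 differed by 2.07 (-3.63 ± 0.473 against -1.56 ± 1.08) and Npy2r to Npy1r by 0.70 (-0.91 ± 0.256 against -0.21 ± 0.170). Together with Ntsr1 to Ntsr2 (1.54) and Vipr2 to Adcyap1r1 (1.39), these differences gave the smallest p of this design, 0.0286 (exact permutation over 35 splits, two-sided), and 0.109 after Benjamini-Hochberg adjustment over the 19 pairs, so none passed. Hcrtr2 to Hcrtr1 differed by 1.35 with overlapping groups (exact permutation, p = 0.0857, adjusted 0.163).

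**Figure D4:**
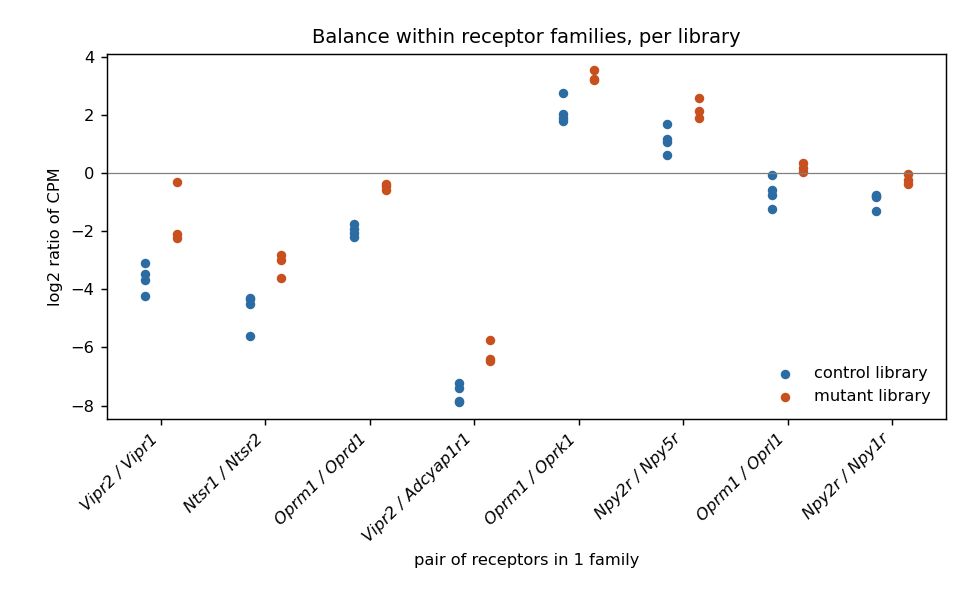
Log2 ratio of CPM between 2 receptors of the same peptide family (y axis) in each control (blue) and mutant (orange) library, for the 8 of 19 pairs whose groups did not overlap. For Oprm1 / Oprd1 the control points span -2.19 to -1.74 and the mutant points -0.59 to -0.37.

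The peptides that bind these receptors were read in the same fit. Of 36 ligand genes 18 were tested, 3 were called higher and 2 lower (median log2 fold change 0.19). Of all tested genes 4.63% were called higher and 4.78% lower. The ligand list and the lists below were chosen with earlier results of these data known, which can raise the share called. Tac2, the neurokinin B precursor, rose from 22.5 ± 5.93 to 46.5 ± 4.67 CPM (1.05, SE 0.18, edgeR adjusted p 0.00343) and was the only one called in each fit without 1 library. Sst (0.84) and Cck (0.71) were also higher and Npy (-0.64) and Crh (-0.74) lower. Single libraries ended these calls: Sst without mutant 7 (adjusted p 0.0551), Npy without mutant 6 or 8 (0.0688 and 0.0637), Cck without control 2 or 3 or any mutant (up to 0.12), and Crh without control 2 or any mutant (up to 0.143). Of 49 ligand and receptor pairs, 30 had both genes tested and 1 had both called, Npy (lower) with Npy2r (higher). Gip (at most 0.130 CPM as a group mean) and Nps (at most 0.0827 CPM) were too scarce to test, and Prok2 was not called (1.48, adjusted p 0.0562).

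Peptide receptors and RAMP proteins outside the 38 numbered 47, of which 24 were tested, 5 called higher and 3 lower (median 0.06). The shares of all tested genes were 4.63% higher and 4.78% lower. Crhr2, the second receptor of the corticotropin-releasing hormone family, rose from 7.21 ± 1.70 to 29.5 ± 0.996 CPM (2.03, SE 0.19, edgeR adjusted p 4.88e-05), while Crhr1 did not pass. Pth2r, a parathyroid hormone receptor, was higher (1.05) and Rxfp1, a relaxin receptor, lower (-0.92), and these 3 were called in each fit without 1 library. Sstr5 (2.57), Npffr1 (1.26) and Glp2r (0.96) were also called higher and Rxfp3 (-1.15) and Ramp1 (-0.61) lower. Single libraries ended these calls: Sstr5 without mutant 7 or 8 (adjusted p 0.0968 and 0.0875), Glp2r without control 3 or mutant 6 (0.0537 and 0.102), Rxfp3 without control 2 or mutant 6 or 7 (up to 0.114), Npffr1 without any library but control 1 (up to 0.259) and Ramp1 without any but control 2 (up to 0.191). Sstr5 was at 0.369 ± 0.347 CPM in controls.

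Downstream of the receptors, 69 of 73 signalling genes were tested, 7 were called higher and 6 lower (median 0.02). Among all tested genes 4.63% were called higher and 4.78% lower. Kcnj9, a subunit of the potassium channels opened by Gi/o-coupled receptors, fell from 150.4 ± 15.8 to 56.0 ± 9.33 CPM (-1.42, SE 0.14, edgeR adjusted p 7.15e-05). Pde1c, a phosphodiesterase that breaks down cyclic nucleotides, rose from 20.4 ± 5.58 to 54.0 ± 7.76 CPM (1.41, SE 0.20, adjusted p 0.000921). Rgs2 (0.73), whose product speeds the shutdown of G protein signals, was higher and Rgs10 (-1.14), of the same family, lower. These 4 were called in each fit without 1 library. Rgs14 (1.21) and Rgs9 (0.81) were higher, and lost their calls without mutant 8 (adjusted p 0.0842) and mutant 7 (0.0601). Pde4c (-1.20) was lower, and lost its call without mutant 7 or 8 (0.0704 and 0.0632). Adcy7 (0.52), Rgs19 (0.50) and Prkar2b (0.41) were higher and Gna14 (-2.15), Pde7b (-1.03) and Rgs6 (-0.79) lower, near the threshold: each lost its call without control 2, without mutant 7, and without at least 2 other libraries (up to 0.135, 0.175, 0.205, 0.192, 0.156 and 0.216).

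Of the 7 called receptors, Gipr, Npsr1, Oprm1 and Npy2r were called in each of the 7 fits without 1 library and under each of the 11 other settings. Their log2 fold changes ran from 2.27 to 2.57 for Gipr, 2.05 to 2.54 for Npsr1, 0.85 to 1.09 for Oprm1 and 0.87 to 1.13 for Npy2r. Prokr2, Vipr2 and Mc4r kept their direction, and were not called when control 4 and mutant 8, the libraries without Y-linked reads, were both left out (adjusted p 0.0625, 0.0779 and 0.105). Vipr2 was also not called without controls 1 and 4 together (0.0829). The plot of fold changes under other settings gives each value.

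**Figure D5:**
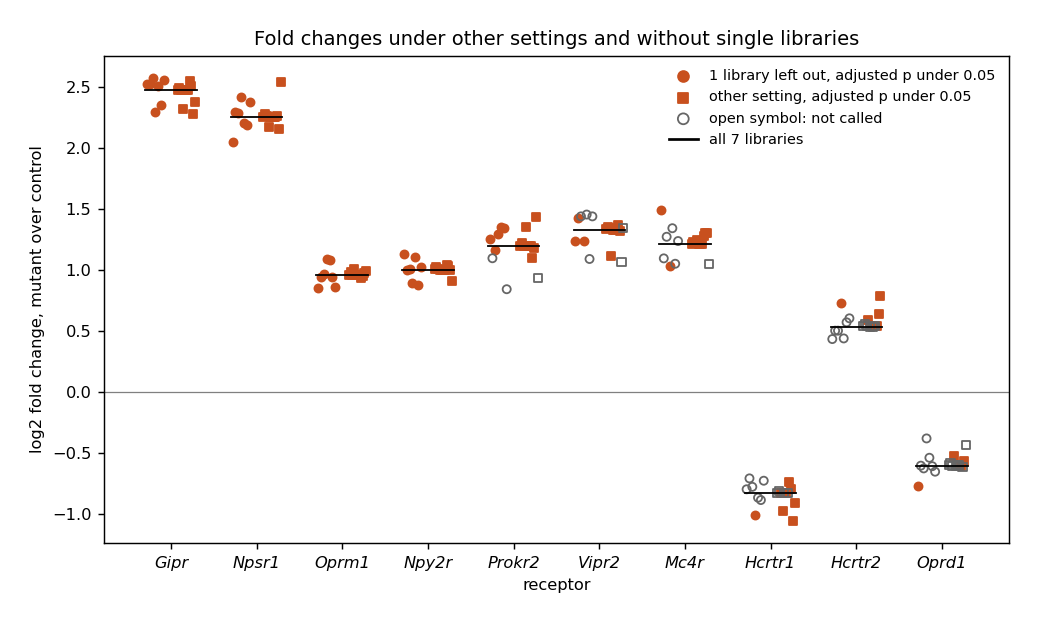
Log2 fold change of mutant over control for the 7 called receptors and for Hcrtr1, Hcrtr2 and Oprd1, in fits without 1 library (circles) and under the 11 other settings (squares); filled symbols have an adjusted p under 0.05 and the black line is the value with all 7 libraries. Gipr, Npsr1, Oprm1 and Npy2r have filled symbols throughout, and Hcrtr1 stays below 0 at -1.06 to -0.71.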

How the data were processed

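The authors deposited 1 table of counts per sample: whole-number counts of reads per gene with no header, raw as far as their values show (each table has its own total). Bowtie2 2.5.3 and the builds mm10 and GRCm38 are named in the submitters' processing notes, and the counting program is not given in the sources used here. Reads came from SMART-Seq v4 cDNA of sorted nuclei, per the labels' protocols, without molecular identifiers, so counts are not independent molecules. Identifiers matched GENCODE M21, which gave symbols and coordinates. Genes wholly inside another gene had no counts, so reads in shared spans appear not to be in the tables.

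In R 4.3.3, edgeR 4.0.16 was fitted on all genes (filterByExpr with a least count of 10 and least total of 15, TMM, robust glmQLFit and glmQLFTest, genotype as the only term), with Benjamini-Hochberg adjustment over 16448 genes and a call at 0.05, two-sided. SE is the log2 fold change over the root of F. The fit was run on counts simulated from its own dispersions, which checks the code and says nothing about these libraries. Alternatives used DESeq2 1.42.0, limma 3.58.1 voom, other scalings and filters, a term for Y-linked reads, an offset from genomic length, and libraries left out. P-values weigh the difference between the groups against the spread between these libraries, which edgeR estimates with information shared across genes. The 38 members and all lists were chosen with earlier results of these data known. Values per library are printed for called receptors, for those without overlap and for the 5 others highest per exon length, with further receptors added after their values were seen. From other lists the called genes are named.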

Additional observations from a re-analysis of the deposited data

Results flagged for a closer look

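The 4 controls were searched for a library far from the others in each of the 32 tested receptors; 3 mutants are too few for this. Chance flags about 1 in 20, or 1.6 of 32, and 2 were found. Control 4 had Gipr at 2.90 CPM, where controls 1 to 3 had 5.37 to 5.79, a gap of 0.854 of the range of the controls. Without control 4 its log2 fold change was 2.29 (edgeR adjusted p 2.78e-07). Tacr3 was at 3.55 CPM in control 2, against 1.69 to 1.90 in the others, a gap of 0.887 of the range. Without control 2 its log2 fold change was -0.18 (adjusted p 0.834), beside -0.48 with all libraries.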

How the results depend on the processing

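With single libraries left out, 4 to 10 receptors were called higher (4 without mutant 8, 10 without control 4) and 0 to 1 lower, and 734 (without mutant 7) to 2347 (without control 4) genes in all. Limma-voom with quality weights called 12 receptors higher and 3 lower, of 3147 genes called. The number called lower was 1 with DESeq2, without the filter, with the offset from genomic length or without control 4 and mutant 8 (an alternative added after seeing the data), and 2 with the term for Y-linked reads or without controls 1 and 4. The offset called 2753 genes and the removal of controls 1 and 4 called 2778. For the other lists, RLE, DESeq2 and no filter were run besides leaving out single libraries. With those 3, ligands went to 4 higher (DESeq2, no filter), and signalling genes to 8 higher (DESeq2) and to 5 (RLE) or 4 (no filter) lower. Single libraries gave 1 to 5 ligands higher and 0 to 4 lower, 3 to 5 other receptors higher and 1 to 2 lower, and 3 to 10 signalling genes higher and 2 to 6 lower. By genomic length, whole or unshared (the latter added), 3 of the 5 highest receptors remained. No called receptor changed sign. Receptors near 0 did: Trhr was at 0.49 with limma-voom and 0.73 without controls 1 and 4, Sstr1 at -0.065 without those, and Sstr4 at 0.031 with the offset. Without single libraries values ran from -0.54 to 0.24 for Trhr, -0.094 to 0.57 for Sstr1, -0.15 to 0.050 for Sstr4, -0.068 to 0.58 for Sstr3, -0.19 to 0.14 for Oxtr, -0.078 to 0.19 for Crhr1, -0.29 to 0.058 for Mchr1, -0.11 to 0.017 for Npy5r and -0.066 to 0.00069 for Adcyap1r1. The causes were not tested. Without 1 library the ratios cannot reach 0.05, and ran from 1.45 to 2.41 for Vipr2 to Vipr1, 1.45 to 1.60 for Oprm1 to Oprd1, 0.57 to 0.78 for Npy2r to Npy1r, 1.24 to 1.78 for Ntsr1 to Ntsr2 and 1.16 to 1.52 for Vipr2 to Adcyap1r1. No paired analysis was run because the sample labels give no pairing of the controls (1 to 4) with the mutants (6, 7, 8 and 10). Vipr2, Ntsr1, Galr1 and Trhr, at 37 or fewer counts per library, are limited by depth.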
